A study of Mus musculus with 4 samples.

Results

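Glutathione transferases, aldehyde dehydrogenases and aldo-keto reductases were followed in the mouse line BR5FVB1-Akt, which the labels give as ovarian cancer, grown in DMEM with serum. Members were taken by gene symbol alone: Gst followed by a letter, or Mgst, Aldh or Akr followed by a digit, leaving out Akr1c18. This gave 56 of the 22180 genes tested, made up of 22 glutathione transferases, 21 aldehyde dehydrogenases and 13 aldo-keto reductases. There were 2 control arrays and 2 arrays of cells that had 10 uM decitabine for 72 h, each from the total RNA of its own sample on an Affymetrix whole-transcript array. The labels give the line by name and tumour type, state no further allele, and do not say whether the control dishes received a vehicle. The samples of a group are called biological replicates and the labels say nothing of separate cultures. The p-values therefore measure the spread between these 4 arrays. The log base of the values is not given in the sources used here. Their range is that of log2 expression, and each fold change assumes it. In bulk RNA of this kind, fewer cells with a transcript and less of it per cell cannot be told apart.

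The 3 families share the work of disposing of reactive carbonyls and electrophiles. Glutathione transferases join the tripeptide glutathione to electrophiles, aldehyde dehydrogenases oxidise aldehydes to acids, and aldo-keto reductases reduce aldehydes and ketones to alcohols. Several members also have a place in ordinary metabolism, such as retinoic acid synthesis and the breakdown of amino acids. Many are targets of the stress-responsive transcription factor NRF2 (gene Nfe2l2). Decitabine is a cytidine analogue that traps DNA methyltransferases on replicating DNA, and promoter methylation of GSTP1 is a textbook example of silencing in human prostate cancer.

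Differences among the members were small and mostly downward. The largest was in Aldh5a1, which was 1.70-fold lower on the decitabine arrays, followed by Aldh6a1 (1.57-fold lower) and Aldh1a2 (1.55-fold lower). On the upper side no member differed by more than the 1.34-fold of Gstm6. In limma with Benjamini-Hochberg adjustment over all genes, 0 members were called higher and 0 lower at an adjusted p under 0.05, where 0.131% of all genes were called higher and 0.0135% lower, and the smallest adjusted p among members was 0.0998, for Aldh5a1. At an unadjusted p under 0.05, 12 of the 56 members (21.4%) were lower and 3 (5.36%) higher, beside 6.97% and 7.34% of all genes. The median log2 fold change of the members was −0.09, against 0.00 over all genes, and 39 of 56 (69.6%) were negative, against 49.3%. Both decitabine arrays lay below both control arrays in 25 members (44.6%, all genes 22.5%) and above them in 9 (16.1%, all genes 23.4%).

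These counts depended on the variance model. When limma let the variance follow the mean level (an intensity trend), 11 members were lower and 1 was higher at an adjusted p under 0.05, where 3.6% of all genes were lower and 3.68% higher. The 11 were Aldh1a2, Aldh6a1, Aldh5a1, Mgst1, Gsta3, Aldh2, Akr1b8, Gsta4, Aldh3a2, Gstm2 and Gstm7, and the higher one was Aldh1a1. The members' median log2 fold change was −0.08 without control replicate 1 and −0.09 without control replicate 2. It was −0.18 without decitabine replicate 1 and −0.09 without decitabine replicate 2. All 12 members lower at an unadjusted p under 0.05 had a mean level above the median gene's, as did 38 of the 56. Among all genes in that upper part 10.2% were lower and 9.66% higher. Of the members, 8 lay below the 25th percentile of level. The table holds no detection call, so such dim values could not be set against background.

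**Figure D1:**
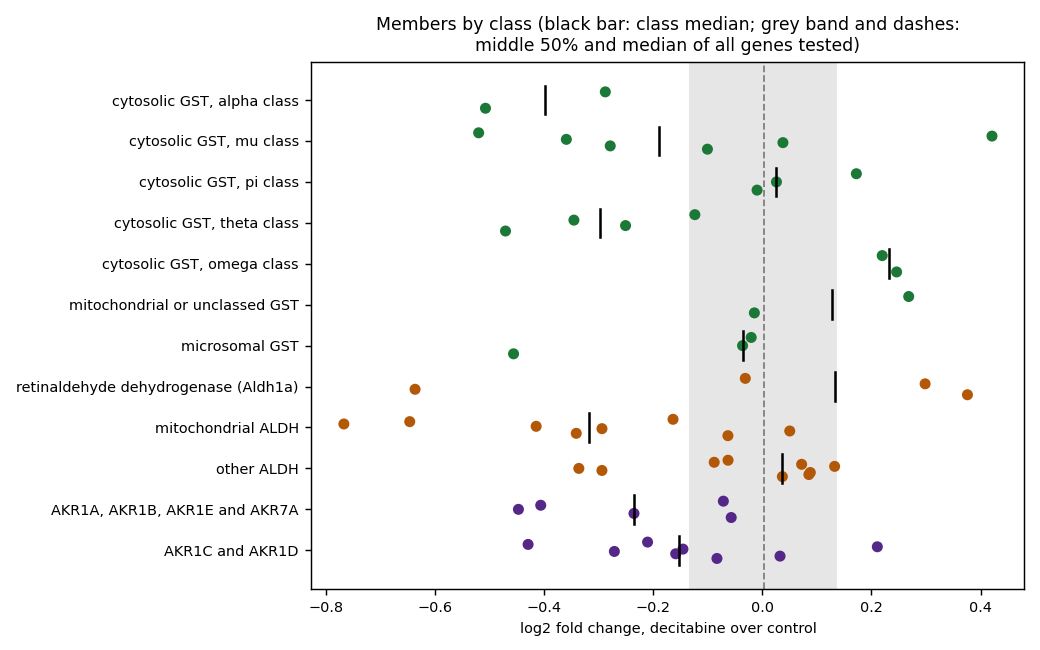
Log2 fold change (decitabine over control, horizontal axis) of the 56 members, 1 point per gene, by class. Green points are glutathione transferases (GST), orange aldehyde dehydrogenases (ALDH) and purple aldo-keto reductases (AKR). Black bars are class medians, and the grey band holds the middle 50% of all genes tested, from −0.13 to 0.14. The point farthest to the left is Aldh5a1, one of the mitochondrial aldehyde dehydrogenases, whose median is −0.32. The median is −0.40 for the 2 alpha-class genes, −0.30 for the theta class and 0.03 for the pi class.

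The mitochondrial aldehyde dehydrogenases held the member with the smallest p-value. Of 8, 7 had both decitabine arrays below both control arrays (22.5% of all genes, and 30% of those above the median level). The median log2 fold change was −0.32. At an unadjusted p under 0.05, 4 were lower, beside 6.97% of all genes and 10.2% of genes above the median level, where all 8 lie. Aldh5a1 encodes succinate semialdehyde dehydrogenase, the last step of the breakdown of the neurotransmitter GABA. Its log2 level was 6.83 and 6.71 on the control arrays, and 6.03 and 5.98 after decitabine. The groups were well apart, and the log2 fold change was −0.77 ± 0.10 (SE, 2 arrays per group, limma adjusted p = 0.0998, and 0.00219 with the intensity trend). It was also the only member called when genes below the 25th percentile of level were left out (limma adjusted p = 0.0414).

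Aldh6a1 encodes methylmalonate semialdehyde dehydrogenase of valine and thymine breakdown. It was at 9.37 and 9.21 on the control arrays and at 8.73 and 8.55 with decitabine, a log2 fold change of −0.65 ± 0.12 (limma adjusted p = 0.150, and 0.00104 with the trend). A second array row for Aldh6a1, not used in the fit of genes, gave −0.75, with control values of 4.79 and 4.93 and decitabine values of 4.31 and 3.91. The 2 rows of this gene thus pointed the same way.

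Aldh2, the enzyme that clears the acetaldehyde made from ethanol, was at 10.24 and 10.16 without and at 9.91 and 9.90 with decitabine. Its log2 fold change was −0.29 ± 0.10, and that of its second row −0.33. Aldh4a1, which completes proline breakdown to glutamate, was at 6.05 and 6.13 against 5.80 and 5.55 (−0.41 ± 0.13). Neither passed over all genes in limma (adjusted p = 0.296 and 0.264), and Aldh2 alone of the pair passed with the trend (adjusted p = 0.0110).

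The other mitochondrial members differed less or varied more between arrays. Aldh1b1, a close relative of Aldh2, was at −0.34 ± 0.18, its control arrays being 6.55 and 6.07. Aldh7a1, an enzyme of lysine breakdown, was at −0.16 ± 0.10. Aldh18a1, which makes the proline precursor, was at −0.06 ± 0.10, and Aldh1l2, the mitochondrial 10-formyltetrahydrofolate dehydrogenase, at 0.05 ± 0.12. None of these 4 differed at an unadjusted p under 0.05.

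**Figure D2:**
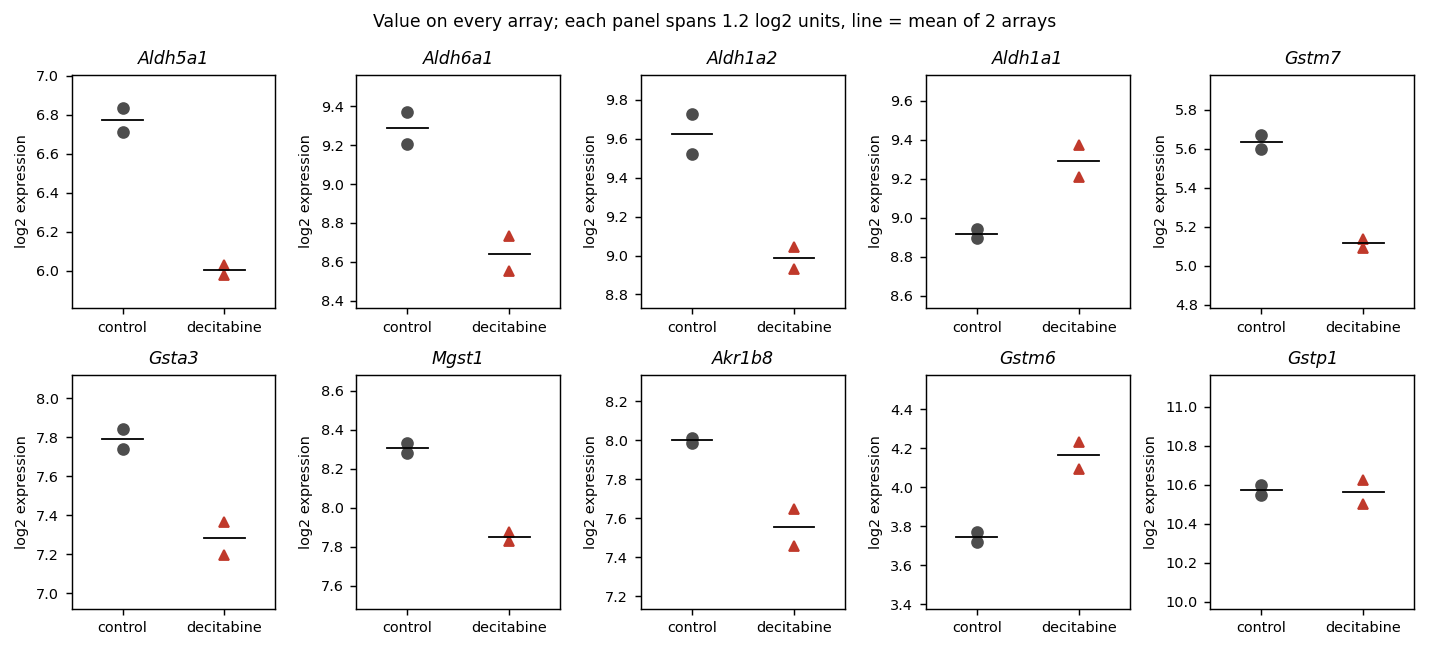
Log2 expression (vertical axis) on every array for 10 members, grey circles for the 2 control arrays and red triangles for the 2 decitabine arrays, with lines at the group means. Every panel spans 1.2 log2 units, so distances can be set side by side between panels. Aldh5a1, Aldh6a1 and Aldh1a2 show the widest gaps, Aldh1a1 and Gstm6 run the other way, and the groups of Gstp1 overlap.

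The retinaldehyde dehydrogenases, which make retinoic acid, lay on both sides of 0. Aldh1a2 was at 9.52 and 9.73 without decitabine and at 9.04 and 8.93 with it. Aldh1a1 was at 8.89 and 8.94 without and at 9.21 and 9.38 with decitabine. In both genes the groups did not overlap, but in opposite directions, with log2 fold changes of −0.64 ± 0.12 for Aldh1a2 and 0.38 ± 0.11 for Aldh1a1. Their adjusted p was 0.151 and 0.245 in limma and 8.60e-04 and 0.0108 with the trend.

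Aldh1a3, the third retinaldehyde dehydrogenase, was dim, at 4.25 and 4.10 on the control arrays and 4.42 and 4.53 with decitabine, and its log2 fold change was 0.30 ± 0.11 (limma adjusted p = 0.332). The rodent gene Aldh1a7, a near copy of Aldh1a1, was at −0.03 ± 0.16 with overlapping groups. Since Aldh1a1 and Aldh1a7 are so alike, their probes may share transcripts.

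Companion genes of retinoid metabolism were read from a list of 28 genes, of which 27 were measured. Of these, 4 lay higher and 4 lower by the unadjusted threshold of 0.05, beside 7.34% and 6.97% of all genes. In limma 0 passed over all genes. Dhrs3, a retinaldehyde reductase that is itself induced by retinoic acid, had the largest difference, with 8.91 and 9.10 on the control arrays against 7.90 and 7.85 (−1.13 ± 0.11, adjusted p = 0.0609). Crabp2, which carries retinoic acid to the nucleus, was at 4.99 and 4.98 against 5.54 and 5.49 (0.53 ± 0.10, adjusted p = 0.145). The receptor gene Rxra was at −0.36 ± 0.10, and the receptor gene Rarb, a retinoic acid target, at −0.33 ± 0.10. Cyp26a1, which degrades retinoic acid and is another of its targets, was dim and stood at 0.32 ± 0.12.

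Among the 9 remaining aldehyde dehydrogenases 1 was lower at an unadjusted p under 0.05 (11.1%, all genes 6.97%), and the median was 0.04. This was Aldh3a2, the fatty aldehyde dehydrogenase of the endoplasmic reticulum, at 8.52 and 8.46 against 8.15 and 8.25 (−0.29 ± 0.10, limma adjusted p = 0.307, and 0.0415 with the trend). Its second row gave −0.14, with overlapping groups. Aldh3b1 was at −0.34 ± 0.19, but control replicate 1 stood at 8.06 and control replicate 2 at 7.52, next to 7.43 and 7.48 with decitabine. The log2 fold change of Aldh3a1, a detoxifying enzyme controlled by the aryl hydrocarbon receptor, was 0.09 ± 0.15. Aldh3b2 was at 0.13 ± 0.10. The log2 fold change of Aldh1l1, the cytosolic 10-formyltetrahydrofolate dehydrogenase, was 0.09 ± 0.14.

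**Figure D3:**
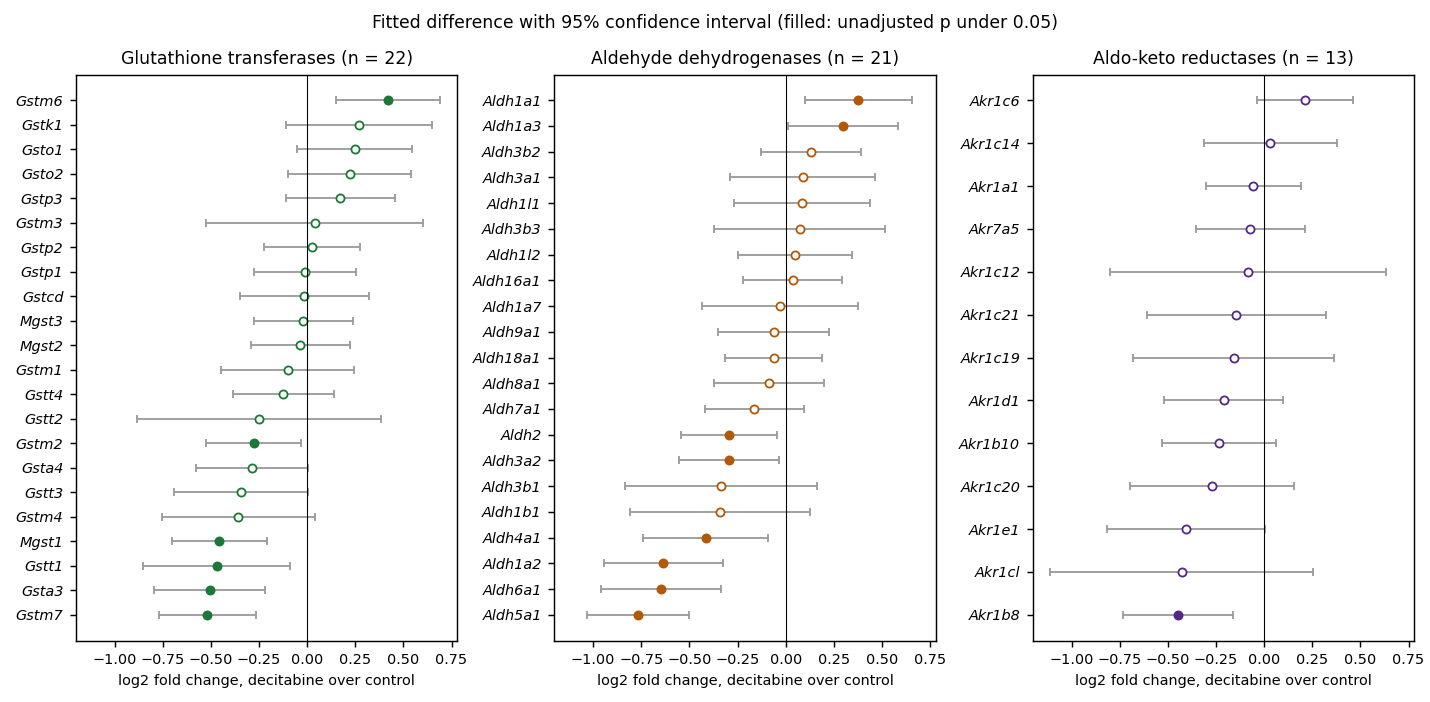
Fitted log2 fold change (decitabine over control, horizontal axis) with its 95% confidence interval for each member, in 3 panels by family and ordered by size. Filled points mark an unadjusted p under 0.05. The filled points number 5 on the left and 1 on the right among transferases, 6 and 2 among dehydrogenases, and 1 and 0 among reductases. Of all genes tested, 6.97% were lower and 7.34% higher at that threshold.

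Glutathione transferases had log2 fold changes of both signs, and no difference between classes was tested. The values were negative for Gsta3 and Gsta4 of the alpha class and for all 4 theta-class genes, positive for both omega-class genes, and of both signs in the mu and pi classes. Of the alpha class, 3 further rows that name Gsta1 and Gsta2 together, not counted as members, were positive (0.54, 0.17 and 0.08). The first of these rows was dim, at 1.80 and 1.91 on the control arrays, and the others had overlapping groups. By the unadjusted threshold of 0.05, 5 of the 22 (22.7%) lay lower and 1 (4.55%) lay higher, beside 6.97% and 7.34% of all genes. Among genes above the median level, where 16 of the 22 lie, the shares were 10.2% and 9.66%. Gsta3, an alpha-class enzyme that conjugates aflatoxin epoxide in mouse liver, was at 7.84 and 7.74 on the control arrays and 7.37 and 7.20 with decitabine. The difference was −0.51 ± 0.11 (limma adjusted p = 0.188, and 0.00860 with the trend). Gsta4, which conjugates the lipid peroxidation product 4-hydroxynonenal, was at 10.08 and 9.90 against 9.76 and 9.65 (−0.29 ± 0.11, adjusted p = 0.354, and 0.0358 with the trend).

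The mu-class genes, which lie together on chromosome 3, pointed in different directions. Gstm7 was at 5.60 and 5.67 on the control arrays and 5.14 and 5.09 with decitabine (−0.52 ± 0.10, limma adjusted p = 0.150). Gstm2 was at 8.43 and 8.45 against 8.20 and 8.13 (−0.28 ± 0.10), and Gstm4 at −0.36 ± 0.16. Gstm6 was the exception, at 3.77 and 3.72 against 4.23 and 4.09 (0.42 ± 0.11, adjusted p = 0.212), and without overlap of the groups. Gstm1 was at −0.10 ± 0.13 and Gstm3 at 0.04 ± 0.22, both with overlapping groups. Mu-class genes are close copies of each other, so their rows may share transcripts.

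The pi-class transferase Gstp1 was bright and nearly level, with 10.60 and 10.55 on the control arrays and 10.50 and 10.63 with decitabine. Its log2 fold change was −0.01 ± 0.10, with a 95% confidence interval from −0.27 to 0.26. The rows of its neighbours on chromosome 19, Gstp2 (0.03 ± 0.10) and Gstp3 (0.17 ± 0.11), also had intervals that included 0. Gstp1 and Gstp2 are near copies, and which of them a probe measured is uncertain. The sign of the Gstp1 value turned with quantile normalization, where it was 0.011.

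Among the theta class, Gstt1 was at 6.63 and 6.37 against 6.16 and 5.90 (−0.47 ± 0.15, limma adjusted p = 0.277) and Gstt3 at −0.35 ± 0.14. Gsto1, an omega-class enzyme that reduces dehydroascorbate, was at 7.95 and 7.81 against 8.05 and 8.22 (0.25 ± 0.12). Gsto2, its neighbour on chromosome 19, was at 0.22 ± 0.12. Gstk1, the kappa-class transferase of mitochondria and peroxisomes, was at 0.27 ± 0.15. Of these 5, Gstt1 alone had an unadjusted p under 0.05. With 1 array left out in turn, the value ranged from 0.089 to 0.45 for Gstk1, from 0.16 to 0.33 for Gsto1 and from 0.13 to 0.31 for Gsto2.

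Of the 3 membrane-bound transferases, Mgst1 alone had groups that did not overlap. Mgst1, a glutathione transferase and peroxidase of the endoplasmic reticulum and outer mitochondrial membrane, was at 8.33 and 8.28 on the control arrays and 7.87 and 7.83 with decitabine. The arrays of each group lay close together, and the difference was −0.46 ± 0.10 (limma adjusted p = 0.174, and 0.00486 with the trend). Mgst2 was at −0.04 ± 0.10 and Mgst3 at −0.02 ± 0.10.

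The aldo-keto reductases were negative in 11 of 13 genes (84.6%, all genes 49.3%), and 6 of the 13 lay below the 25th percentile of level. At an unadjusted p under 0.05, 1 was lower (7.69%), close to the 6.97% of all genes. That gene was Akr1b8, a relative of aldose reductase and a reductase of lipid-derived aldehydes, at 7.99 and 8.01 against 7.65 and 7.46 (−0.45 ± 0.11, limma adjusted p = 0.213, and 0.0131 with the trend). Akr1b10 was at 6.95 and 6.88 against 6.78 and 6.58 (−0.24 ± 0.12). Akr1e1, which reduces 1,5-anhydrofructose, was at 6.57 and 6.80 against 6.45 and 6.11 (−0.41 ± 0.16). Akr1a1, the broad aldehyde reductase that also takes part in mouse vitamin C synthesis, was at −0.06 ± 0.10. Aldose reductase itself, Akr1b3, was not analysed here.

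The AKR1C and AKR1D genes, mostly reductases of steroids, were largely dim, with 6 of 8 below the 25th percentile of level and 0 differing at an unadjusted p under 0.05. Akr1c14, a 3-alpha-hydroxysteroid dehydrogenase, was at 7.42 and 7.22 against 7.47 and 7.24 (0.03 ± 0.13). Akr1cl was at −0.43 ± 0.27, but control replicate 1 was 6.83 and control replicate 2 was 6.05, and without control replicate 1 the value was −0.04. The second row of Akr1cl gave -0.0032, with overlapping groups. Akr1c6, the dimmest member, was at 0.21 ± 0.10. Akr1c18, the progesterone-degrading reductase that the symbol rule leaves out, lies among these genes on chromosome 13 and rose from 4.38 and 4.32 to 6.34 and 6.08 (1.86 ± 0.13, limma adjusted p = 0.0401).

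Promoter sequence was examined because decitabine lowers the methylation of CG dinucleotides. Windows of 300 bases, from 250 before to 50 after the gene start, came from RefSeq (build GRCm38.p6) and were found for 47 of the 56 members. Where a gene had several windows, the one with most CG was used. The median was 9 CG per window among members and 8 over 27025 genes, and 20 of 47 members (42.6%) had at least 10, against 45.8% of all genes. The 20 had a median log2 fold change of −0.07, with 7 lower and 0 higher at an unadjusted p under 0.05. Of these 7, Mgst1 and Aldh6a1 had another window with 1 and 4 CG, so the choice of window placed them here. The 27 with fewer CG had a median of −0.12, with 4 lower and 2 higher. Over all 47, 11 were lower and 2 higher, beside 6.97% and 7.34% of all genes. Over the 47 genes, Spearman's rho between CG count and log2 fold change was −0.01 and Pearson's r −0.11, given as a description because members of a cluster share sequence.

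The windows of 4 members show how far CG content differs among genes that the results turn on, the 2 retinaldehyde dehydrogenases with opposite signs, the member with the smallest p-value, and Gstp1, which was level. Each is printed 5′ to 3′ on the gene's strand with every CG in capitals. Aldh1a2 (chr9:71215539-71215838, plus strand) holds 50 CG, which puts it at the 99th percentile of genes, and Aldh1a1 (chr19:20492333-20492632, plus strand) holds 3, its other window holding 1. Aldh5a1 (chr13:24937612-24937911, minus strand) holds 24 and Gstp1 (chr19:4037863-4038162, minus strand) holds 20.
Aldh1a2: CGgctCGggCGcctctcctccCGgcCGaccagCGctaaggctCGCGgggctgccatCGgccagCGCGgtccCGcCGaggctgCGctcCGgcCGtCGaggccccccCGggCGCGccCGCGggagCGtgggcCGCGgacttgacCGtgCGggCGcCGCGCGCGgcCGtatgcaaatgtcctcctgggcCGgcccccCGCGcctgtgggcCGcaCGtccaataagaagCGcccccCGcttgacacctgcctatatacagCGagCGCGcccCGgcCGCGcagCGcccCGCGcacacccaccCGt
Aldh1a1: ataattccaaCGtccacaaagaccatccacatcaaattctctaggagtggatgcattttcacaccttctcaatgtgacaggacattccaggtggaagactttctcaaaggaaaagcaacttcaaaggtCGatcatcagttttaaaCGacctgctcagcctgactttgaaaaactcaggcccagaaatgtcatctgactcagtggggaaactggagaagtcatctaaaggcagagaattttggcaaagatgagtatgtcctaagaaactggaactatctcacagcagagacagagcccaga
Aldh5a1: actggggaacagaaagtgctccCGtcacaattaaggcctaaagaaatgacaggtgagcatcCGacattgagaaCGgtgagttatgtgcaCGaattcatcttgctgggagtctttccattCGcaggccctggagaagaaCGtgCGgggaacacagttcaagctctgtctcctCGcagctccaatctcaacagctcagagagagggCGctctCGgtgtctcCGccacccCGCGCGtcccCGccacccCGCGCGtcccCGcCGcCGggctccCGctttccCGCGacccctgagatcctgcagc
Gstp1: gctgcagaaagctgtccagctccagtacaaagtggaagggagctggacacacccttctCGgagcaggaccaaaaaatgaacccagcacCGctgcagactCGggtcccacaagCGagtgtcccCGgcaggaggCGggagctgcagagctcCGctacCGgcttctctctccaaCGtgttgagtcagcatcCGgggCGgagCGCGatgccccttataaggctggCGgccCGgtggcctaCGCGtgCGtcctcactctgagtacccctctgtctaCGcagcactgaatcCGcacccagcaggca
These 4 were picked with their values known. The members next to Aldh1a2 in CG count were Gstcd (33 CG), at −0.01, and Gsto2 (31 CG), at 0.22. DNA methylation was not measured in these samples.

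**Figure D4:**
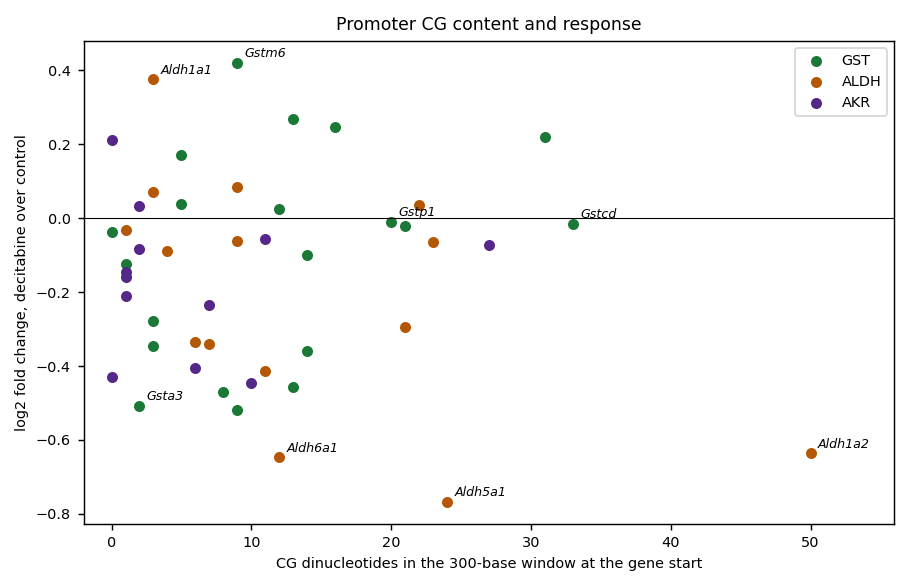
Log2 fold change (decitabine over control, vertical axis) against the number of CG dinucleotides in the 300-base window at the gene start (horizontal axis), 1 point per member with a window (n = 47), coloured by family. Points scatter on both sides of 0 at low and high CG counts, and Aldh1a2 stands alone at 50 CG.

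The antioxidant response element, the binding site of NRF2, was searched as the single string TGACNNNGC on both strands of the same windows. Other forms of the element were not searched, so a window without a match may still hold one. The string occurred in 7 of 47 members (14.9%), beside 12.6% of all genes. The 7 were Aldh1a2, Mgst1, Gstm7, Gsta3, Aldh9a1, Akr1c19 and Akr1cl, of which the first 4 were lower at an unadjusted p under 0.05. Among all 47 members with a window 11 were lower, beside 6.97% of all genes. A link between a match and the direction of change was not tested. A match here is a string in a short window and says nothing about binding.

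NRF2 targets outside the 3 families were mostly positive. Of 23 listed genes 19 were measured, and the median log2 fold change was 0.16. By the unadjusted threshold of 0.05, 7 lay higher and 0 lower, beside 7.34% of all genes higher and 9.66% of genes above the median level, where all 19 lie. In limma 0 passed over all genes, and 6 were higher and 0 lower with the trend (3.68% of all genes higher). Slc7a11, the cystine importer that feeds glutathione synthesis, was at 5.24 and 5.68 on the control arrays and 6.51 and 6.35 with decitabine (0.97 ± 0.17, adjusted p = 0.142). Osgin1, an oxidative stress growth inhibitor, was at 7.36 and 7.39 against 8.01 and 7.95 (0.61 ± 0.10, adjusted p = 0.126). Txnrd1, thioredoxin reductase, was at 9.09 and 9.17 against 9.69 and 9.78 (0.60 ± 0.10, adjusted p = 0.129). Heme oxygenase Hmox1 was at 0.34 ± 0.10 and the quinone reductase Nqo1 at 0.30 ± 0.10. Nfe2l2 itself was at 0.24 ± 0.11 and its inhibitor Keap1 at −0.03 ± 0.10. Among the 8 genes of NRF2 and its regulators 1 was higher at an unadjusted p under 0.05, its small partner Mafk at 0.44 ± 0.11. Maff, another such partner, was at 0.25 ± 0.10.

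Genes that make and break down glutathione had log2 fold changes of both signs. Of 33 listed, 32 were measured, of which 4 lay higher and 3 lower by the unadjusted threshold. Of all genes 7.34% lay higher and 6.97% lower, and of genes above the median level, where 25 of the 32 lie, 9.66% and 10.2%. The counts stood near the latter shares, and the median log2 fold change was 0.07. The NRF2 target list shares 5 of these genes, Slc7a11, Gclc, Gclm, Gsr and Abcc1. Gclc, the catalytic subunit of the rate-limiting enzyme, was at 8.13 and 8.05 against 8.49 and 8.67 (0.49 ± 0.11, limma adjusted p = 0.194), and its partner Gclm was at 0.06 ± 0.11. Ggt5, a gamma-glutamyl transferase that cleaves leukotriene C4 and other glutathione conjugates outside the cell, was at 6.72 and 6.40 against 4.99 and 4.87. This 3.09-fold difference (−1.63 ± 0.14) just missed the threshold in limma (adjusted p = 0.0522). Oplah, which recycles 5-oxoproline, was at −0.61 ± 0.13 and the glutaredoxin gene Glrx at −0.44 ± 0.10.

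**Figure D5:**
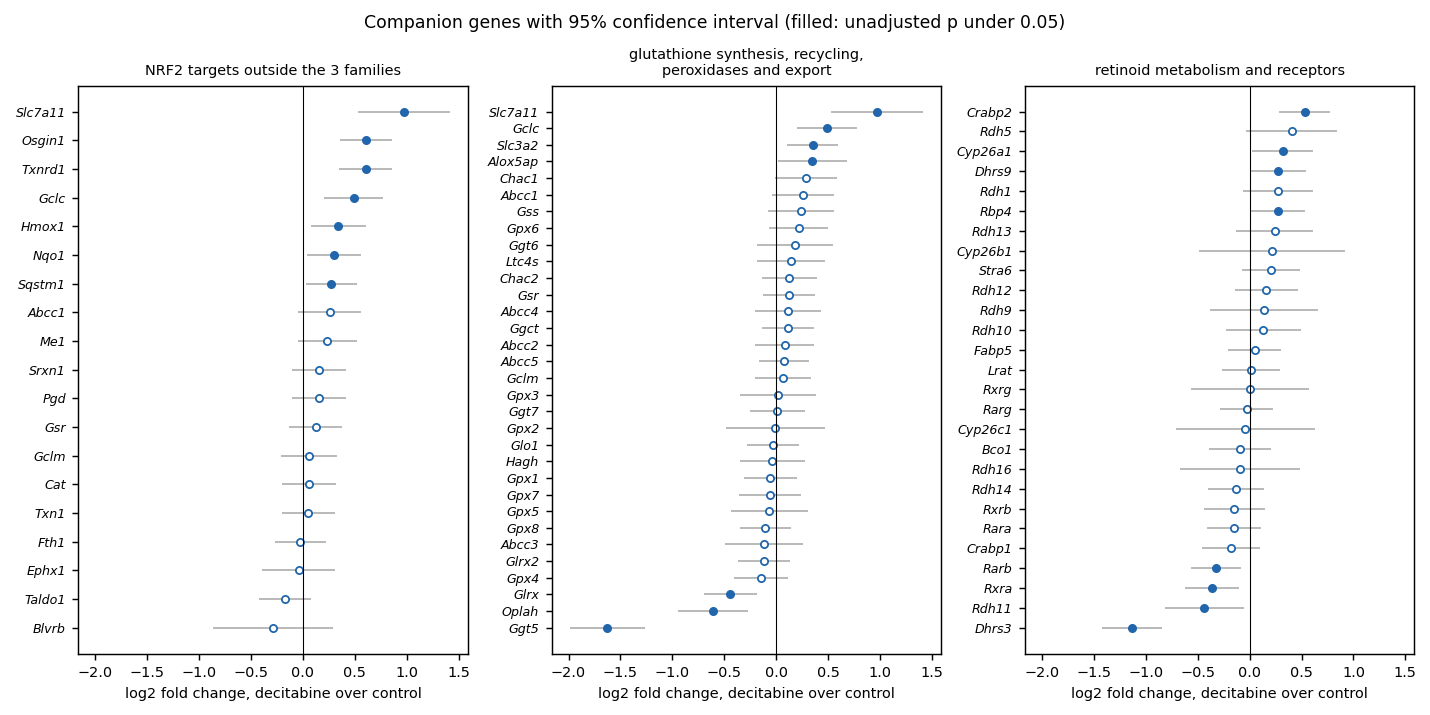
Fitted log2 fold change (decitabine over control, horizontal axis) with its 95% confidence interval for genes of 3 companion lists. Filled points mark an unadjusted p under 0.05. In the left panel all 7 filled points are to the right of 0, while Ggt5 in the middle panel and Dhrs3 in the right one lie farthest to the left.

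Of the aryl hydrocarbon receptor battery, 8 of 9 genes were measured. By the unadjusted threshold 2 lay higher and 0 lower, beside 7.34% and 6.97% of all genes. The cytochrome gene Cyp1b1 was at 7.99 and 7.88 on the control arrays and 8.86 and 8.95 with decitabine (0.97 ± 0.10, limma adjusted p = 0.0759), and Nqo1 is given above. Cyp1a1, another target of the receptor, was at −0.03 ± 0.14, the receptor gene Ahr at 0.19 ± 0.12 and its repressor Ahrr at −0.24 ± 0.13. Among 16 measured of 18 other alcohol, aldehyde and carbonyl enzymes, the alcohol dehydrogenase Adh7 (0.42 ± 0.12) was the 1 higher and the xylulose reductase Dcxr (−0.31 ± 0.10) the 1 lower gene. Adh6a had the next smallest p-value, at 0.22 ± 0.10.

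The line's label was read against markers. Of 12 epithelial and mesothelial ovarian markers, 8 had levels above the median gene, such as Krt18 at 9.24 and Wt1 at 10.8 on the control arrays. Muc16 (5.15), Epcam (4.65), Muc1 (4.11) and Pax8 (3.48) did not. Levels above the median gene were also found for 6 of 8 fibroblast markers. Of these, Dcn (11.8), Pdgfra (10.9) and Col1a1 (10.3) were bright on the control arrays, while Fap (3.60) and Lum (2.60) lay below. The same held for 4 of 13 leukocyte, 1 of 7 endothelial and 1 of 7 hepatocyte markers. Ptprc, which marks all leukocytes, was at 3.04. These shares depend on the probes as well as on the transcripts. By the unadjusted threshold, 2 leukocyte and 2 endothelial markers lay higher, 1 fibroblast marker lower, and 4 epithelial or mesothelial markers higher and 1 lower. Of all genes, 7.34% lay higher and 6.97% lower. The leukocyte list had a median log2 fold change of 0.16, and the part of such cells in the members' values was not tested. The median of all array rows ranged from 4.60 to 4.66, and Pearson's r across genes was 0.993 to 0.995 within groups and 0.990 to 0.991 between them.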

How the data were processed

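Expression was measured on 1 array per sample. The deposited table holds 41345 probe rows and 4 columns, mapped to samples by accession, with 0 columns of other samples. The deposited values span the range of log2 expression and were used as such. The authors' summarisation, background correction and normalization are not given in the sources used here. Array names and labelling come from the labels' protocols.

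Rows with 1 gene symbol in the platform annotation (23521) were kept, and rows with several (1814) or none (16010) were left out. The highest-mean row stood for each gene, which left 22180 genes. All 56 members matched RefSeq (GRCm38.p6) by Entrez identifier, and 0 symbols differed. RefSeq chromosomes and promoter windows were used, and no build comes with the array values.

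The test was limma (version 3.58.1, R version 4.3.3), two-sided, with lmFit and eBayes, no intensity trend and no covariate. P-values were adjusted over all genes by the Benjamini-Hochberg method, with a threshold of 0.05. The prior degrees of freedom were 3.07, and the prior SD was 0.12. Intervals are 95% from that fit. The fit was tested on simulated data. The number of arrays limits the precision. Promoters and figures used Python 3.11.15 and matplotlib 3.10.9.

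The members, companion lists and tests were chosen with earlier results of these data known. Named were the 10 members with the largest positive and the 10 with the largest negative difference, all Aldh1a genes, a set of well-known members, the 3 genes of smallest p in each companion list, and Nfe2l2, Keap1, Nqo1, Hmox1 and Gclm. Others were named after their values were seen to complete a class. Alternatives were quantile normalization, median centring, filters on level, a variance trend on level, eBayes in its robust form, a block for replicate number, mean rows, all rows, an adjusted p under 0.1, and leaving out each array.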

Additional observations from a re-analysis of the deposited data

Results flagged for a closer look

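Rows that name several genes were not used above. Of the 8 such rows from these families, 2 lay higher on each decitabine array than on each control array, at an unadjusted p under 0.05 in a limma fit of all rows. The share of all rows meeting this rule, higher or lower, was not counted. The counts given here can therefore not be called high or low. The row naming Akr1c13 and Akr1c12 went from 1.69 and 1.98 to 3.22 and 2.63, a log2 fold change of 1.08 (adjusted p = 0.447 over all rows). Its control values lie near the bottom of the arrays, and the row of Akr1c12 alone was at -0.08 with overlapping groups. The row naming Gsta1, Gsta2 and Gm10639 went from 1.80 and 1.91 to 2.49 and 2.30, a log2 fold change of 0.54 (adjusted p = 0.464). These control values also lie near the bottom of the arrays. The 2 other rows that name Gsta1 and Gsta2 gave 0.17 and 0.08 with overlapping groups. Of the same 8 rows, 2 lay lower on each decitabine array than on each control array at an unadjusted p under 0.05, those naming Gstz1 and Pomt2 (-0.34, adjusted p = 0.526) and Gstm5 and 4933431E20Rik (-0.44, adjusted p = 0.509). With 2 arrays per group no single array could be tested for standing apart.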

How the results depend on the processing

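With 2 arrays per group, calls rested on how the variance was modelled. Higher and lower genes numbered 29 and 3 as reported, 43 and 8 with centred arrays, 151 and 64 above the 25th percentile of level, 635 and 616 above the median level, 817 and 798 with an intensity trend, 15 and 3 with robust eBayes, 31 and 5 with mean rows, and 114 and 40 at an adjusted p under 0.1. The replicate block gave 0 and 0 (smallest adjusted p = 0.106), as did a fit of all rows (0.282) and each fit without 1 array, all ranging from 0 to 0. Higher and lower members numbered 0 and 0 as reported, 0 and 1 above the 25th percentile, 1 and 7 above the median level, 1 and 11 with the trend, and 0 and 1 at an adjusted p under 0.1. Without 1 array, the members past the unadjusted threshold ranged from 0 to 2 higher and from 7 to 12 lower, and the members' median from -0.18 to -0.084. That median was -0.26 among the 38 members above the median level. With the replicate block 2 members lay higher and 9 lower by the unadjusted threshold, and the share of all genes was not counted in that fit. The numbers were not taken as pairs, since same-numbered arrays' deviations correlated at only -0.02 across genes. Over the 56 members that correlation was -0.32, and its source was not tested.

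Of 341 values of 27 members named by the rule, under the alternatives, 313 kept their direction and side of the threshold and 19 newly passed, 10 with the trend (Gstm2 and Aldh3a2, outside that rule, also passed there), 8 above the median level and 1 above the 25th percentile. Part of the 313 was settled beforehand, so the count is no measure of robustness. The trend, robust eBayes, the replicate block, the fit of all rows and the filters on level leave each log2 fold change as it was. No direction could change there. With the replicate block and the fit of all rows 0 genes passed, so no member could newly pass. In the fits without 1 array no member could newly pass either. The 9 that changed sign were small. Gstp1 was 0.011 with quantile normalization, and without 1 array the values ranged from -0.072 to 0.052 for Gstp1, -0.22 to 0.16 for Aldh1a7, -0.21 to 0.013 for Gstm1, -0.090 to 0.27 for Aldh3a1 and -0.066 to 0.24 for Aldh1l1. The cause of these shifts was not tested.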

Other observations

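The pathway around Aldh6a1 was looked up after its value was seen, in a list of 16 genes of valine breakdown, 15 of them measured. The list was chosen for that reason and gets no test of its own. Of the 15, 13 were negative, with a median log2 fold change of -0.26. Both decitabine arrays lay below both control arrays in 12 (22.5% of all genes, and 30% of those above the median level, where all 15 lie). At an unadjusted p under 0.05 in limma, 6 were lower and 1 was higher, beside 6.97% and 7.34% of all genes. Among genes above the median level the shares were 10.2% and 9.66%. Of the list, 0 passed over all genes. Mmab, which makes the cobalamin cofactor of methylmalonyl-CoA mutase, was at 8.15 and 7.99 on the control arrays and 7.52 and 7.40 with decitabine (-0.61 ± 0.11). Echs1, enoyl-CoA hydratase, was at 9.08 and 8.99 against 8.50 and 8.59 (-0.49 ± 0.10). Both subunits of propionyl-CoA carboxylase, Pccb (-0.41 ± 0.10) and Pcca (-0.35 ± 0.11), and the epimerase gene Mcee (-0.45 ± 0.12) were lower as well. The 2 positive genes were Dld, a subunit shared by several dehydrogenase complexes, at 0.20 ± 0.11, and Bcat1. Bcat1, the cytosolic aminotransferase that begins the pathway, was at 7.94 and 7.98 against 8.40 and 8.48 (0.48 ± 0.10), while its mitochondrial counterpart Bcat2 was at -0.19 ± 0.10.

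The enzyme upstream of Aldh5a1 in GABA breakdown, the transaminase Abat, which also acts in valine breakdown, was at 8.41 and 7.92 on the control arrays and 7.30 and 7.19 with decitabine (-0.92 ± 0.18, limma adjusted p = 0.162). The GABA-making genes Gad1 (0.05 ± 0.23) and Gad2 (-0.13 ± 0.11) were dim and did not differ at an unadjusted p under 0.05. Of 12 listed genes of GABA, proline and glutamate breakdown, also chosen after the members' values were seen, 9 were measured, with a median of 0.02. Prodh, the step before Aldh4a1, was at 0.02 ± 0.10. Glutamate dehydrogenase Glud1 was the 1 higher gene of that list at an unadjusted p under 0.05 (0.36 ± 0.12), beside 7.34% of all genes.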
